A study of Danio rerio with 14 samples.

Results

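The retinoic acid genes described here are rbp4l, aldh1a2, cyp26a1, crabp2a, rarga and raraa, 6 of the 8793 genes named on the array. They were taken as every probe set annotated to exactly 1 gene symbol among these names, which gave 7 probe sets, since rarga has 2. All 7 were tested. They were measured in 14 pools of about 20 whole zebrafish embryos of the TL strain at 8 hours post fertilization (hpf), in mid-gastrulation, with 1 Affymetrix array per pool. The 7 ethanol treated pools were kept in embryo medium with 100 mM ethanol (0.6% by volume) for 6 hours starting at 2 hpf. The 7 control pools received no ethanol. No gene was altered in either group. Each ethanol pool was paired with the control pool of the same replicate number, 1 to 6 and 8. The labels do not name the embryo batch, and the replicate number was taken to stand for it. Per the methods the batches are separate experiments, each perhaps with embryos of 1 breeding pair.

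Retinoic acid is made from vitamin A. Retinol is carried by binding proteins, oxidized to retinal by dehydrogenases and then to retinoic acid by Aldh1a enzymes, and it is cleared by Cyp26 enzymes. Inside the cell it is bound by Crabp proteins and activates nuclear receptors of the Rar family, which sit on DNA with Rxr partners. In the vertebrate gastrula this pathway is known for patterning the hindbrain and trunk and for switching on anterior hox genes.

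Values are MAS5 signals, intensities that the authors scaled to a common target on each array. Testing required a signal of 200 or more on 3 or more arrays of either treatment, which 9240 probe sets met, and all 7 probe sets of the retinoic acid genes met it in both treatments. The log2 change, ethanol minus control, was fitted in limma with treatment and embryo batch as factors, and is given with its standard error (SE) and 95% interval. Changes with a p up to 0.10 after Benjamini-Hochberg adjustment over all 9240 were called. The signs of the 7 within-pair changes were also permuted (exact, two-sided), which can give no p under 0.0156. Signals of different probe sets cannot be set against each other as levels, because probes differ in brightness. In pools of whole embryos, fewer cells of a type and less RNA per cell cannot be told apart.

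Among the retinoic acid genes, rbp4l fell in ethanol treated embryos, to 50.6% of the control signal, and was lower in every pair. No change was called for aldh1a2, cyp26a1, crabp2a, raraa or either probe set of rarga. The call on 1 of 7 probe sets stands beside 4.36% of all 9240 probe sets called in either direction and 2% called lower. An unadjusted p up to 0.05 was reached by rbp4l, crabp2a and the first rarga probe set, all 3 with values below 0, as by 15% of all probe sets in either direction and 7.45% below 0. The fitted change was below 0 for 6 of the 7 probe sets, against 50.2% of all. Signals of rbp4l, of crabp2a and of the first rarga probe set also differed among embryo batches, as did those of 22.3% of all probe sets.

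**Figure D1:**
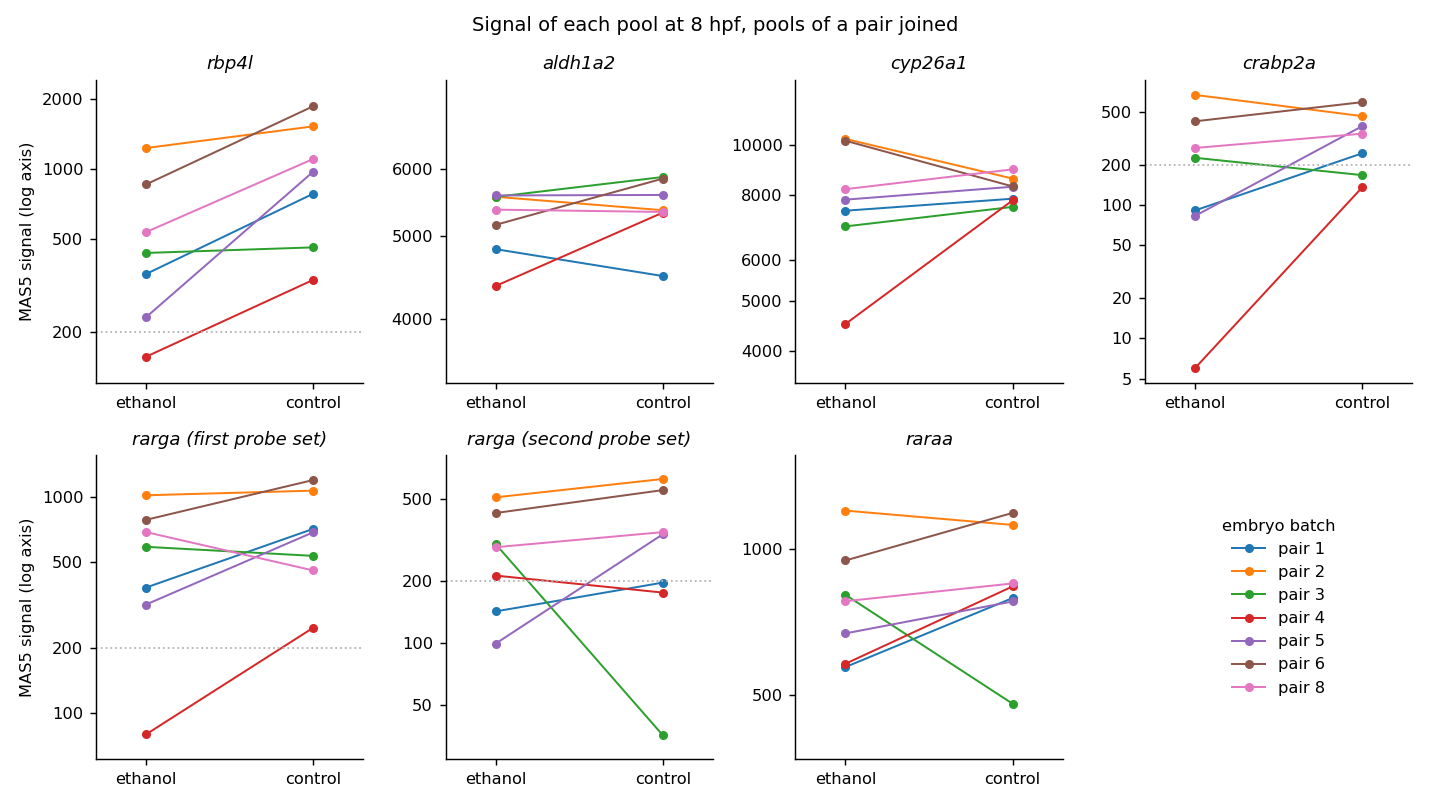
MAS5 signal (log axis, range set for each panel) of the 7 probe sets in each of the 7 ethanol pools (left) and 7 control pools (right), with pools of a pair joined by a line and the dotted line at a signal of 200 where it falls in the range. All 7 lines of rbp4l run higher on the control side, while those of aldh1a2 stay between 4374 and 5868, and the steepest lines are pair 4 for crabp2a and pair 3 for the second rarga probe set.

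The retinol carrier gene rbp4l is related to the plasma protein that transports retinol. Its signals in ethanol pools 1, 2, 3, 4, 5, 6 and 8 were 354, 1233, 436, 156, 231, 860 and 536. In the control pools of the same batches they were 784, 1529, 461, 334, 976, 1866 and 1107. The ranges overlapped, since ethanol pool 2 was above all control pools but 2 and 6, yet within each batch the ethanol pool was the lower one. The signal averaged 544 ± 381 in ethanol pools and 1008 ± 551 in control pools (SD, n = 7 each). The log2 change was -0.98 (SE 0.19, 95% interval -1.37 to -0.59, adjusted p = 0.00713, limma), and it was lower in 7 of 7 pairs (exact permutation of signs, p = 0.0156). Of all probe sets tested, 2.97% were lower in all 7 pairs.

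The size of the fall in rbp4l varied widely from batch to batch. In batch 5 the ethanol pool had 23.6% of the signal of its control pool, and in batches 1, 4, 6 and 8 it had between 45.1% and 48.5%. In batch 2 it had 80.7% and in batch 3 it had 94.6%. Pairs 1, 4, 6 and 8 thus lay close together, near the fitted value, with pair 5 well below them and pairs 2 and 3 above. With each batch left out in turn the change stayed between -1.13 and -0.80 and the adjusted p between 0.00337 and 0.0297. The call was lost without the batch block, which ignores the pairing (adjusted p = 0.573, limma), and with batch as a random effect (0.161). It was also lost with a variance prior that did not depend on signal (0.127). The random effect used the same correlation within batches for every probe set, so it is not the study's own model. The study's own list of genes changed in these samples holds rbp4l, so its change here is not independent evidence.

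**Figure D2:**
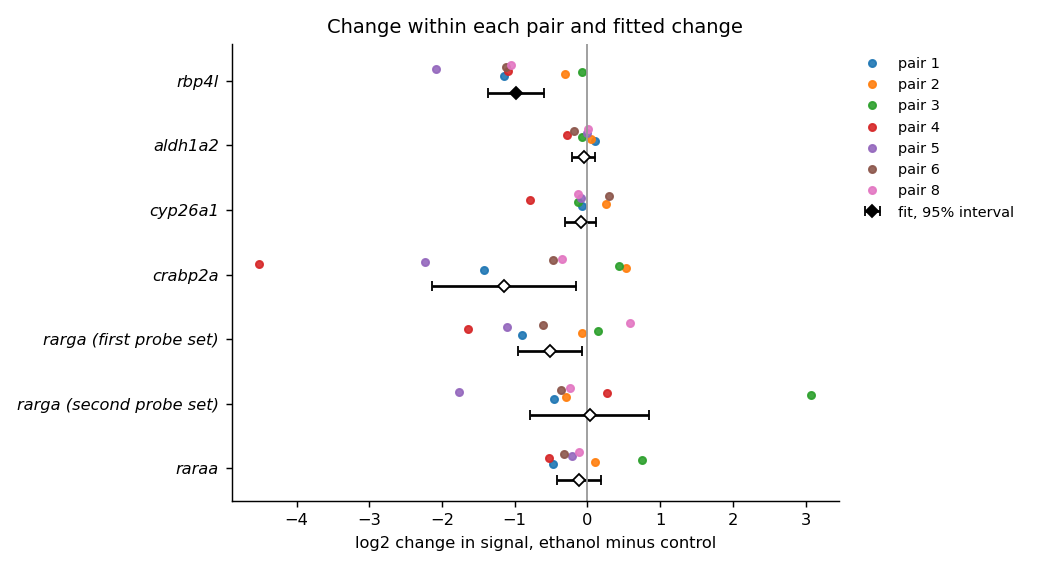
Log2 change in signal, ethanol minus control, for each probe set, with the 7 within-pair changes as colored points and the fitted change with its 95% interval as a diamond, filled where it was called. The interval of rbp4l, from -1.37 to -0.59, is the one with a filled diamond, and the pair changes of crabp2a range from -4.51 to 0.53.

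A retinol carrier gene of the same family, rbp4, is known from zebrafish to be expressed in the yolk syncytial layer, an extraembryonic tissue through which the embryo draws on its yolk. Here rbp4 itself did not reach the signal minimum on any array (91.0 ± 51.5 in ethanol pools and 81.8 ± 69.4 in control pools, SD, n = 7 each). Genes of that layer and of the yolk were lower in the same pools. Of 33 listed, 24 were tested, besides rbp4l, of which 14 fell and 0 rose, where 2% of all probe sets were called lower. The count was 9 without batch 5, 5 with batch as a random effect, 1 without the variance trend and 0 without the batch block. The median log2 change of the 24 was -0.48, against -0.00139 over all probe sets tested. Since the list was chosen with earlier results of these data known, neither the count nor the median is independent evidence. The summed signal of the 24 ran from 222690 to 317180 in ethanol pools and from 269180 to 345590 in control pools. It was lower in ethanol in 7 of 7 pairs. Bright probe sets weigh most in this sum, such as apoeb and ctsla, whose log2 changes were -0.02 and 0.01. Among the defining markers of the layer, apobb.1 (log2 change -1.23) and apoa2 (-1.07), both of which code for lipoprotein components, fell. The transcription factor gene hnf4a was at -0.05 and the sulfate transporter gene slc26a1 at -0.29, neither of them called, and mxtx2 was not tested. That each of the 24 reached a signal of 200 in some pools follows from the signal minimum required for testing. The change in rbp4l was the 8th most negative beside these 24, of which 11 were lower in all 7 pairs. Their part in the change of rbp4l was not tested.

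Across the 14 arrays, the log2 signal of rbp4l correlated with those of the 24 genes with a median Pearson's r of 0.78, ranging from -0.53 to 0.94, where the median over all probe sets was 0.0524. These arrays differ together in embryo batch, treatment and perhaps stage. Since the list was chosen with earlier results known, this median r is not independent evidence either. The 3 genes most like rbp4l over the 14 arrays were eif3ea (r = 0.951), the transcription factor gene zeb2a (0.938) and apoa2 (0.937). Of these, zeb2a and apoa2 fell (log2 changes -0.55 and -1.07) and eif3ea was at -0.13 with an adjusted p of 0.394 (limma). Within the 7 pairs, the changes most like those of rbp4l were in csnk2b (r = 0.990), pdcl3 (0.980) and zfand1 (0.977), of which none was called. These were picked as the highest of 7124 correlations over only 7 points. Picks made this way for the other retinoic acid genes lay between 0.940 and 0.988.

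**Figure D3:**
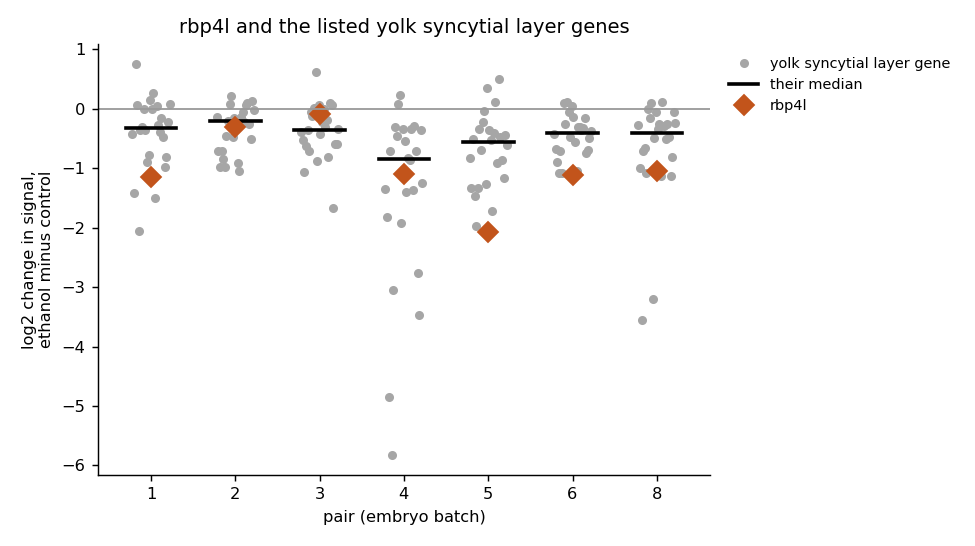
Log2 change in signal, ethanol minus control, in each of the 7 pairs for rbp4l (diamond) and the 24 tested genes listed for the yolk syncytial layer (grey points), with the median of the 24 as a bar. The bar lies below 0 in every pair, between -0.84 in pair 4 and -0.21 in pair 2, and rbp4l lies at -2.08 in pair 5 and at -0.08 in pair 3.

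Synthesis of retinoic acid at this stage is known to depend on aldh1a2, the enzyme that turns retinal into retinoic acid. Its signal had a lowest, median and highest value of 4374, 5374 and 5583 in ethanol pools. In control pools these were 4492, 5365 and 5868. The ranges overlapped almost wholly, and the lower pool of a pair was the ethanol one in 4 of 7 pairs. The log2 change was -0.05 (SE 0.08, adjusted p = 0.799, limma; exact permutation of signs over 7 pairs, p = 0.359). Its 95% interval reached from 86.2% to 108% of the control signal, so that a change of the size fitted for rbp4l lies outside it. Over the 14 pools aldh1a2 had the smallest highest to lowest ratio of the 7 probe sets, 1.34. Within the control pools cyp26a1 spanned less, 1.18-fold against 1.31-fold for aldh1a2.

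Degradation itself was not measured, only the transcript of cyp26a1. This gene codes for an enzyme that oxidizes retinoic acid, and retinoic acid itself induces it. Ethanol pools had signals of 4518 at the lowest, 7840 in the median and 10261 at the highest. Control pools had 7591, 8301 and 8966. The control pools thus lay within the ethanol pools, which spread further on both sides, 2.27-fold from lowest to highest in ethanol pools and 1.18-fold in control pools. Ethanol pools 2 and 6 were above every control pool, at 119% and 122% of their own controls, and ethanol pool 4 was below every other pool, at 57.8% of its control. For cyp26a1 the log2 change was -0.09 (SE 0.10, 95% interval -0.30 to 0.12, adjusted p = 0.716, limma), with the ethanol pool lower in 5 of 7 pairs (exact permutation of signs, p = 0.641). Without batch 4 it was 0.02, in the opposite direction. The other Cyp26 genes, cyp26b1 and cyp26c1, were under the signal minimum, with a highest mean of 78.8 among their probe sets.

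Intracellular binding was not measured either, only the transcript of crabp2a. This gene codes for a carrier that holds retinoic acid in the cytoplasm and passes it to receptors. Its signals in ethanol pools 1, 2, 3, 4, 5, 6 and 8 were 91.7, 676, 228, 6.00, 83.4, 428 and 270.0. In the control pools they were 246, 468, 169, 137, 394, 596 and 346. The ranges overlapped, with the highest pool of all in ethanol (batch 2) and the 3 lowest in ethanol as well (batches 4, 5 and 1). The fitted log2 change was -1.15 (SE 0.47, 95% interval -2.14 to -0.16), larger than that of rbp4l, but it was not called (adjusted p = 0.241, limma). The ethanol pool was lower in 5 of 7 pairs (exact permutation of signs, p = 0.156). The value rests largely on pair 4, whose log2 difference was -4.51 at signals near the floor of the array. It was -0.59 without batch 4, and -0.48 where 100 was added to all signals ahead of the logarithm.

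The paralog crabp2b gave 3814 ± 982 in ethanol pools and 3813 ± 798 in control pools (SD, n = 7 each). Its log2 change was -0.02 (SE 0.10, adjusted p = 0.957, limma). The ethanol pool was again lowest against its control in pair 4, at 67.2%, and highest in pairs 2 and 6, at 132% and 127%. These are the pairs in which cyp26a1 stood apart in the same directions.

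The receptor gene rarga codes for a retinoic acid receptor of the gamma type and has 2 probe sets. Their fitted changes differed, and this difference was not tested. On the first, signals had a lowest, median and highest value of 79.5, 589 and 1022 in ethanol pools. In control pools they were 248, 688 and 1203. The ranges overlapped over most of their length, and the lowest pool of each treatment came from batch 4. The log2 change was -0.52 (SE 0.21, 95% interval -0.96 to -0.07, adjusted p = 0.243, limma), with the ethanol pool lower in 5 of 7 pairs (exact permutation of signs, p = 0.141). It was not called with any batch left out, and lay between -0.70 without batch 8 and -0.33 without batch 4.

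The second rarga probe set is of a type whose probes can match more than 1 transcript. Its lowest, median and highest signals were 99.5, 291 and 508 in ethanol pools. In control pools they were 35.7, 337 and 624. The ranges overlapped, and the lowest pool of all was control pool 3, where the ethanol pool of that batch had 301. On this probe set the log2 change was 0.03 (SE 0.39, 95% interval -0.79 to 0.85, adjusted p = 0.98, limma), although the ethanol pool was lower in 5 of 7 pairs (exact permutation of signs, p = 0.984). Without batch 3 it was -0.48, where the first probe set was at -0.625 with the same batch left out. Over the 14 arrays the log2 signals of both probe sets correlated with r = 0.452.

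The receptor gene raraa codes for a receptor of the alpha type. Its signals had a lowest, median and highest value of 571, 781 and 1202 in ethanol pools. In control pools they were 480, 838 and 1189. The ranges overlapped almost wholly, with the lowest pool in control (batch 3) and the highest in ethanol (batch 2). For raraa the log2 change was -0.12 (SE 0.14, 95% interval -0.42 to 0.18, adjusted p = 0.762, limma), with the ethanol pool lower in 5 of 7 pairs (exact permutation of signs, p = 0.484). Pair 3 was the one with the largest difference, 168% of control, the same pair that stood apart on the second rarga probe set. The change was -0.26 without batch 3 (adjusted p = 0.382, limma) and -0.05 without batch 4. The third Rar gene on the array, rarab, gave 1651 ± 192 in ethanol pools and 1651 ± 76.7 in control pools (SD, n = 7 each), a log2 change of -0.01 (SE 0.10). Of the 4 Rxr genes with a probe set none reached the minimum (highest mean signal 173).

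The difference between rbp4l and the other probe sets was then tested within pairs, with Benjamini-Hochberg adjustment over 6 differences. This test was chosen after the values were seen, with rbp4l as reference because it was the only gene called. The adjustment does not cover that choice, so the p-values are likely too low. The log2 change of rbp4l was lower than that of aldh1a2 by 0.93 (SD 0.66 over pairs, 7 of 7 pairs, exact permutation of signs, p = 0.0156, adjusted p = 0.0312). For raraa the difference was -0.87 (7 of 7 pairs, exact adjusted p = 0.0312) and for cyp26a1 -0.89 (6 of 7, exact adjusted p = 0.0469). For the second rarga probe set it was -1.01 (7 of 7, exact adjusted p = 0.0312). A large part of this came from pair 3, where that probe set had a log2 change of 3.08 and a control signal of 35.7. A difference from the first rarga probe set (-0.47, exact adjusted p = 0.169) or from crabp2a (0.17, exact adjusted p = 0.953) was not detectable over 7 pairs.

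Embryo batches differed in the same genes. By the moderated F test over the 6 batch coefficients, rbp4l (adjusted p = 0.000276, limma), the first rarga probe set (0.000735) and crabp2a (0.022) were called, and aldh1a2, cyp26a1, raraa and the second rarga probe set were not (adjusted p between 0.102 and 0.513). Over all probe sets, 22.3% were called for batch. The control pools of rbp4l spanned 5.59-fold from lowest to highest and its ethanol pools 7.91-fold. The median range of control pools over all probe sets tested was 0.916 on the log2 scale. A range of single pools is not the same measure as the fitted treatment change, a mean over pairs. Batches 2 and 6 gave the 2 highest pools of each treatment for 5 of the 7 probe sets, namely rbp4l, crabp2a, raraa and both of rarga. This held for 4.78% of all probe sets tested. Batch 4 had the lowest ethanol pool for rbp4l, aldh1a2, cyp26a1, crabp2a and the first rarga probe set.

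Batches 2 and 6 were also the highest in the summed signal of genes whose transcripts rise during gastrulation. For the 18 tested, of 26 listed, it was 60995 and 60198 in ethanol pools 2 and 6. It was between 42957 and 47102 in the other ethanol pools. In control pools 2 and 6 it was 64408 and 62820, against 48611 to 52938 in the other control pools. Bright probe sets weigh most in this sum, above all msgn1 (mean 16147 in ethanol pools and 17849 in control pools) and tfap2a (11382 and 11401). The sum was lower in ethanol in 7 of 7 pairs. The median log2 difference of the 18 genes was 0.00845 in pair 6 and below 0 in the other pairs. Of these 18, listed with earlier results known, 3 fell and 1 rose (2% and 2.36% of all probe sets), with a median log2 change of -0.27. The 4 calls became 2 after median centering, without the variance trend or without any 1 of batches 1, 2, 4, 5, 6 and 8, 1 with batch as a random effect and 0 without the batch block. The paper reports slower epiboly in ethanol treated embryos, so treatment and a delay in stage cannot be told apart here. The part of developmental stage in the values of rbp4l, crabp2a, rarga and raraa was not tested.

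**Figure D4:**
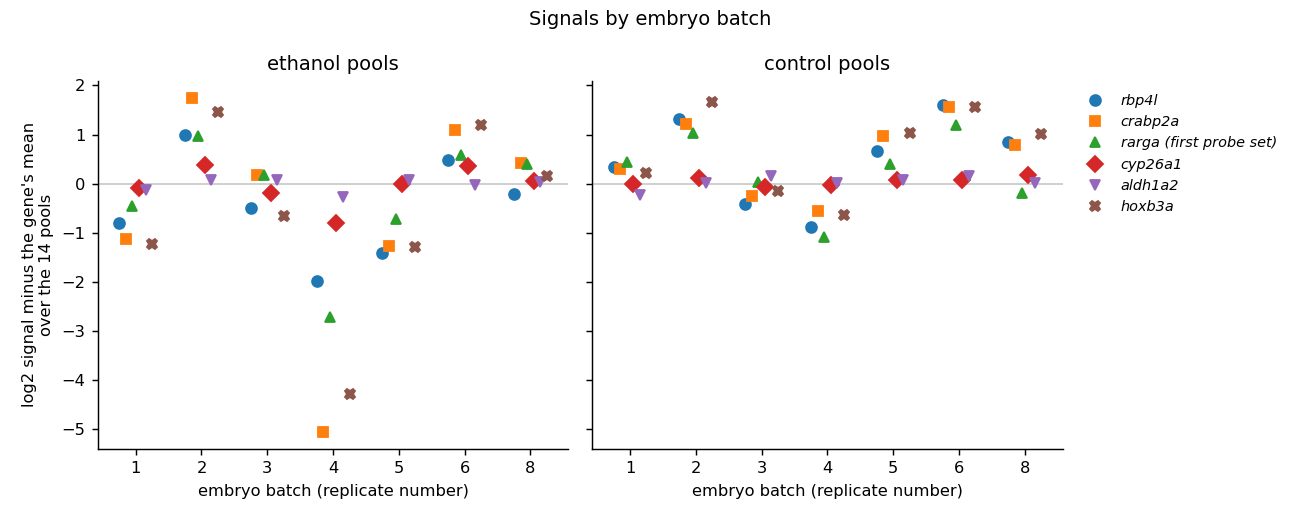
Log2 signal minus the gene's mean over the 14 pools, by embryo batch, in ethanol pools (left) and control pools (right), for 5 probe sets of retinoic acid genes and for hoxb3a. Points of rbp4l, crabp2a, rarga and hoxb3a stand above 0 in batches 2 and 6 of both treatments and below 0 in batch 4, while aldh1a2 stays near 0 throughout.

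Across the 14 arrays the log2 signals of crabp2a and of the first rarga probe set correlated with r = 0.946, those of cyp26a1 and crabp2a with r = 0.905 and those of rbp4l and crabp2a with r = 0.878. The gene most like crabp2a was hoxb3a (r = 0.979), a hox gene of the hindbrain, followed by zgc:175214 (0.972) and fmo5 (0.970). For the first rarga probe set the order was fmo5 (0.971), the cadherin gene cdh11 (0.952) and crabp2a. The genes most like cyp26a1 were s100v1 (0.936) and 2 regulators of the anterior neural plate and eye field, six3b (0.929) and rx3 (0.926). For aldh1a2 they were ganaba (0.897), cmtr2 (0.869) and nrp2b (0.856), and for raraa arl3l2 (0.932), si:dkey-73n10.1 (0.915) and uso1 (0.907). Likeness was ranked over 7124 probe sets and describes arrays that differ together in batch, treatment and perhaps stage.

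The wider pathway was followed through a list of 114 genes, 69 of which have a probe set and 28 of which were tested, the retinoic acid genes above among them. Of the 28, 3 fell, 1 rose and 24 were not called, so that 14.3% were called, where the share over all probe sets was 4.36% (2% lower and 2.36% higher). Their median log2 change was -0.09, and 17 lay within 0.2 of 0. This list was also chosen with earlier results of these data known and holds rbp4l, so its share called is not independent evidence. The falls were in rbp4l, hoxb3a and meis3, and the rise was in rdh14b. The count of calls was 2 with the arrays centered on their medians, 1 with batch as a random effect, and 0 without the batch block or with a variance prior that did not depend on signal.

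**Figure D5:**
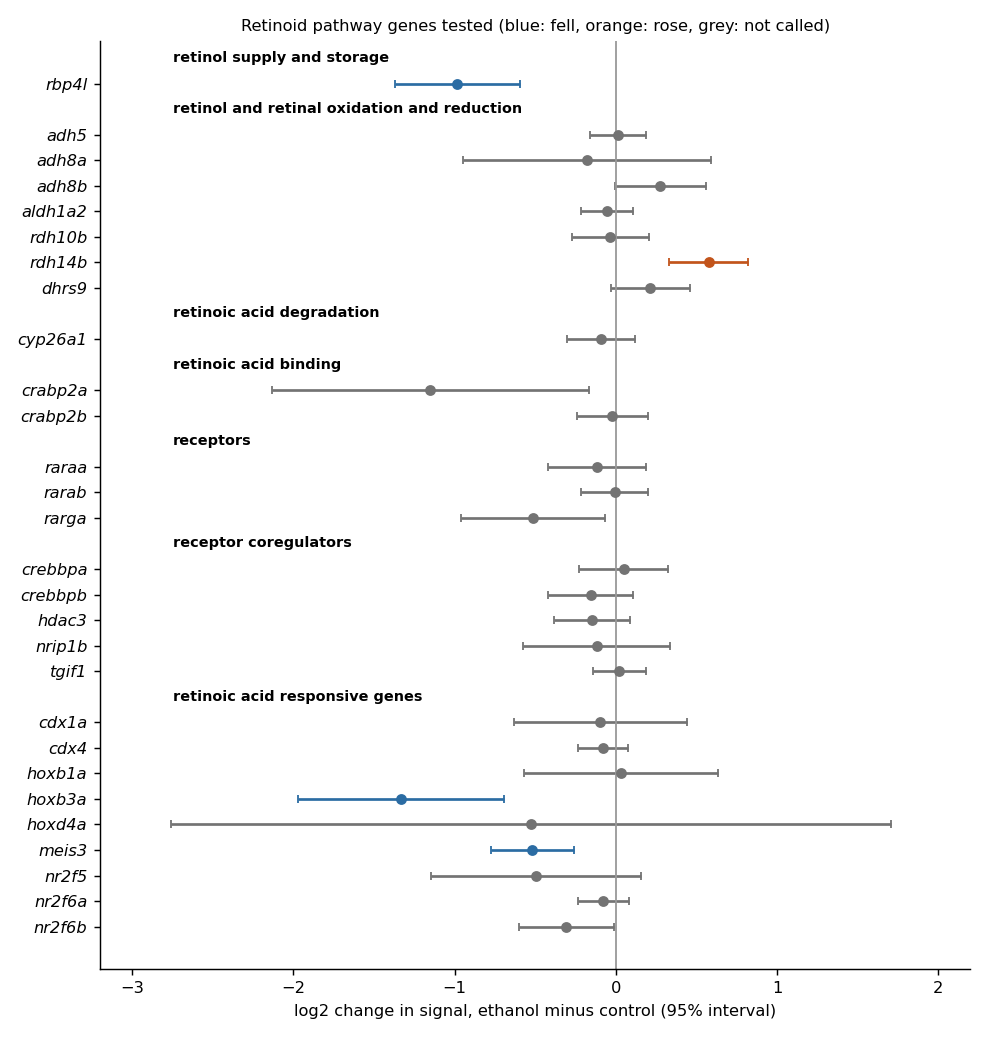
Fitted log2 change in signal, ethanol minus control, with its 95% interval for the 28 retinoid pathway genes tested, each drawn once under the first of its lists. The called falls (blue) are rbp4l, hoxb3a and meis3 and the called rise (orange) is rdh14b, and most other intervals (grey) hold 0.

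In retinol supply and storage, 9 of 25 listed genes have a probe set and rbp4l was the only one tested. In the oxidation and reduction of retinol and retinal, 7 of 24 were tested and 1 rose. This was rdh14b, of the retinol dehydrogenase family, with signals of 1125 at the lowest, 1392 in the median and 1732 at the highest in ethanol pools, and 698, 999 and 1249 in control pools. The ranges overlapped only in their ends, and the ethanol pool was the higher one of every pair. Its log2 change was 0.58 (SE 0.12, adjusted p = 0.0122, limma; 7 of 7 pairs higher), with 199% of control in pair 5 and 102% in pair 6. It was not called after median centering (adjusted p = 0.107), without the batch block (0.252) or without the variance trend (0.112).

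The retinol dehydrogenase gene rdh10b, whose mouse counterpart makes the retinal used by Aldh1a2, had a log2 change of -0.04 (SE 0.11). The alcohol dehydrogenase genes adh8b (0.28, SE 0.14), adh5 (0.01, SE 0.08) and adh8a (-0.18, SE 0.37) were not called, nor was dhrs9 (0.21, SE 0.12). Of the receptor coregulators, 5 of 16 were tested and none was called. Their log2 changes lay between -0.16 for crebbpb and 0.05 for crebbpa, both histone acetyltransferase genes.

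Of 34 genes listed as responsive to retinoic acid, 11 were tested, 2 fell and none rose. The shares over all probe sets were 2% called lower and 2.36% called higher. This list too was chosen with earlier results known, so its count is not independent evidence. The hox gene hoxb3a had signals of 191, 1238, 284, 23.0, 182, 1026 and 497 in ethanol pools 1, 2, 3, 4, 5, 6 and 8. In the control pools they were 524, 1413, 404, 287, 913, 1322 and 899. The ranges overlapped, and the ethanol pool was lower in each batch, least in batch 2 at 87.6% of control and most in batch 4 at 8.04%. Its log2 change was -1.33 (SE 0.31, adjusted p = 0.025, limma; 7 of 7 pairs lower), and -0.95 without batch 4. The adjusted p was 0.656 without the batch block, 0.22 with batch as a random effect and 0.23 without the variance trend.

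The gene meis3, whose product acts with Hox proteins in the hindbrain, had signals of 623 at the lowest, 852 in the median and 2869 at the highest in ethanol pools. Control pools had 927, 1516 and 3405. Both treatments had their highest pools in batches 2 and 6, and the ethanol pool was the lower one in 7 of 7 pairs. The log2 change was -0.52 (SE 0.12, adjusted p = 0.0314, limma). It was not called after median centering (adjusted p = 0.12), without the batch block (0.786), with batch as a random effect (0.423), without the variance trend (0.19) or without batch 5.

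The other responsive genes were not called. The nuclear receptor genes nr2f5 (log2 change -0.49, SE 0.31), nr2f6b (-0.31, SE 0.14) and nr2f6a (-0.08, SE 0.08) and the caudal genes cdx1a (-0.10, SE 0.26) and cdx4 (-0.08, SE 0.07) had values below 0. The hox genes hoxd4a (-0.53, SE 1.07) and hoxb1a (0.03, SE 0.29) reached the signal minimum on 4 and 5 of the 14 arrays. Of 19 hox genes listed with a probe set, 16 did not reach the signal minimum, so that most of the hox response could not be examined.

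The median signal of an array was between 219 and 296 in ethanol pools and between 214 and 282 in control pools. These medians include the 6262 probe sets left out of testing and lie near the signal minimum of 200. Centering the arrays on these medians gave 103 calls over all probe sets in place of 403, with rbp4l still called and rdh14b and meis3 no longer called. Enveloping layer genes had 1 fall and no rise among 14 tested, where 2% of all probe sets were called lower and 2.36% higher. Their median log2 change was 0.03. Their summed signal, in which bright probe sets weigh most, was lower in ethanol in 1 of 7 pairs. The paper reports high RNA integrity numbers for all samples. GAPDH control probes near the 3′ end gave more signal relative to those near the 5′ end in the ethanol pool in 6 of 7 pairs. The acta1 control probes did so in 5 of 7. These ratios were widely scattered, for GAPDH from a log2 of -3.98 in control pool 8 to 2.57 in ethanol pool 6. In several control pools the 5′ probes were the brighter ones. The part of these ratios in the changes above was not tested. The exact p-values measure the spread between these 7 pairs. The limma p-values for treatment use that spread moderated by a trend over all probe sets tested. Those for embryo batch measure differences between batches.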

How the data were processed

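RNA of 14 pools was measured on Affymetrix Zebrafish Genome Arrays, all hybridised together. The authors computed MAS5 signals with a target of 1000 for each array. The deposited values are these signals, an intensity on a linear scale. Detection calls, on which their own filter rested, were not used here. Of 15617 probe sets, 115 are controls. By the array annotation, with symbols updated, 10795 of the others carry 1 symbol, 135 several and 4572 none.

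A minimum signal of 200 on 3 or more of 7 arrays of either treatment was required (9240 probe sets kept, 6262 left out). Log2 signals were fitted in limma 3.58.1 (R 4.3.3) with treatment and embryo batch and moderated by eBayes, the prior following the mean signal (degrees of freedom: 6 residual, 12.7 prior). The number of arrays limits the precision. Replicate numbers were taken to pair the pools. Deviations from treatment means correlated within each of the 7 pairs (r between 0.112 and 0.378), and 6 of 7 ethanol arrays correlated best with their own control. Among the 42 other combinations r lay between -0.282 and 0.282, so that some pairs lay below the highest of these. Exact tests used all 128 sign patterns.

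The genes and lists were chosen with earlier results of these data known. Each listed gene was represented by its brightest tested probe set. Named genes were every retinoic acid gene, listed pathway genes past the threshold, otherwise up to 5 of a list with the largest changes, and the 3 probe sets most like each gene. Others (rarab, dhrs9 and further list members) are named only to complete a list. Alternatives were other signal minimums (100, 400, none), quantile normalization, median centering and 100 added before the logarithm. Further ones were no block, a random block (statmod 1.5.0), no trend, weights estimated for each array, and each batch left out. The random block used the same correlation within batches for every probe set. The test of rbp4l against the other genes and the alternatives for the gastrulation list were added after seeing the data. Figures used matplotlib 3.10.9 in Python 3.11.15.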

Additional observations from a re-analysis of the deposited data

Results flagged for a closer look

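The control pool of batch 1 had the lowest aldh1a2 signal of its treatment, 4492, with the next control pool at 5332. On the log2 scale the gap was 0.641 of the whole range of the 7 control pools, above Dixon's critical value for 7 values. It was the 1 case among 20 groups of 7 pools searched, and chance gives about 1 in 20.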

How the results depend on the processing

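The number of calls over all probe sets (403) was 103 after median centering, 28 without the replicate block, 177 with a random block, 43 without the variance trend, and between 209 and 467 with a batch left out (238 without batch 4, 222 without 5, 238 without 6 and 209 without 8). Calls for embryo batch (2058) numbered 1093 after median centering and 752 without the trend. Among the retinoic acid genes the 1 call, rbp4l at -0.983, was lost without the replicate block (0 calls), with a random block (0) and without the trend (0), and stayed with any batch left out. Pathway calls (4) numbered 2 after median centering, 0 without the block, 1 with a random block and 0 without the trend, and between 3 and 5 with a batch left out. Yolk syncytial layer calls (14) numbered 0 without the block, 5 with a random block, 1 without the trend and 9 without batch 5. The sign turned for cyp26a1 without batch 4 (0.0225, range with a batch left out -0.158 to 0.0225) and for the second rarga probe set with 100 added (-0.0597), without batch 3 (-0.476) and without batch 4 (-0.00905, range -0.476 to 0.33). The cause was not tested. All alternatives kept the direction of rbp4l, aldh1a2, crabp2a, raraa and the first rarga probe set. Crabp2a and the second rarga probe set are not among the probe sets with a minimum of 400. Signals under 200, as in several pools of these 2, limit what their values show.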
